A study of Mus musculus with 4 samples.

Results

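The genes described here are the variable (V) segments of the T cell receptor, taken as every gene expression feature whose symbol begins with Trav or Trbv. The rule gave 163 of the 32285 features in the count matrices, 128 Trav and 35 Trbv, and used no measured value. Transcripts were counted in single CD8+ PD-1+ CD44+ cells sorted from the tumor-draining lymph nodes (TdLN) of female C57BL/6 mice bearing B16F10GP, a B16F10 mouse melanoma line transduced with the glycoprotein of LCMV so that the tumor carries a known viral antigen. There were 4 libraries, from untreated mice (Control) and from mice taken on day 7 after irradiation of the tumor (RT), after an antibody against PD-L1 (αPD-L1) or after both (RT + αPD-L1), and each pooled 5 mice marked by hashtag antibodies. All groups, Control included, carried the tumor. The mouse was the replicate, and because each treatment is a single library, treatment and library cannot be told apart.

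Most CD8+ T cells carry a receptor made of an α and a β chain. Each developing T cell builds a β chain gene by joining a Trbv segment to a D and a J segment and an α chain gene by joining a Trav segment to a J segment, and joining usually removes the DNA that lay between the joined pieces. The V segment encodes most of the antigen-facing domain, including loops that touch the MHC molecule, while the junction adds the most variable loop. Daughter cells inherit the joined genes, so the V segments of a cell can be followed through activation and division, although cells of unrelated origin also share V segments and a Trav and Trbv pair is therefore not a clonotype. The question put to these counts was how V segments were used across treatments, mice and cell states.

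The Trav features lay on chromosome 14 between 52427928 and 53977678 and the Trbv features on chromosome 6 between 40891229 and 41558452 (GRCm38). The annotation called 20 of the Trav and 13 of the Trbv features pseudogenes. Of the Trbv features, 28 had at least 1 unique molecule (UMI) and the 7 at 0 were all pseudogenes. Of the Trav features, 117 had a UMI and 10 of the 11 at 0 were pseudogenes. The Trbv pseudogenes together held 1884 of 591023 Trbv UMIs, of which Trbv24 gave 1620.

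Kept cells numbered 36917, from 134 cells (RT mouse 4) to 4458 cells (RT + αPD-L1 mouse 3) and from 1150836 to 36557313 UMIs per mouse. They came from 47820 barcodes, of which 43971 passed the cell filter and 39192 carried a single hashtag, after clusters led by γδ T cell, Klra and dendritic cell genes were set aside. Barcode sequences present in more than 1 library numbered 815, in 1635 cells. The CD8 co-receptor gene Cd8b1 was found in 95.8% of kept cells and Cd3e, a signalling chain of the receptor, in 97.1%. Cd4 was found in 0.55% and the B cell gene Cd79a in 0.658%. Pdcd1, which encodes PD-1, was found in 14% and Cd44 in 31.8%, so transcripts of these sorted proteins were seen in a minority of cells. The largest cluster, of 7660 cells and below called naive-like, was led by Igfbp4, Ccr9, Klf2 and Il7r. Why cells of a PD-1+ CD44+ sort showed these values was not tested.

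V segment transcripts were read in most cells, β chains better than α chains. A Trbv UMI was present in 97.7% of kept cells with a median of 13 per cell, and a Trav UMI in 79.8% with a median of 3. Trbv features held 0.201% of all UMIs and Trav features 0.0606%. Among 503 dendritic cell-like barcodes, which should lack the genes, 59.0% had a Trbv UMI at a median depth of 6685 UMIs, beside 98.2% of naive-like cells at a median of 5111 UMIs. Cd8b1 was found in 54.1% of the same dendritic cell-like barcodes, so T cell RNA in general was present there. A cell was therefore assigned a segment only where that segment had at least 2 UMIs and at least 80% of the cell's UMIs of the locus, which assigned 33.8% of the dendritic cell-like barcodes a Trbv.

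By this rule 27345 cells received a Trbv, 15135 a Trav family and 11947 both. The share of cells with a Trbv was 75.0% ± 1.99 in Control, 75.6% ± 2.75 after RT, 73.8% ± 1.67 after αPD-L1 and 74.8% ± 2.67 after RT + αPD-L1 (SD over 5 mice of each group). The share with a Trav family was 40.9% ± 1.12, 39.9% ± 1.78, 41.2% ± 2.87 and 40.7% ± 1.86 in the same order. The ranges over mice of the 4 groups overlapped for both shares.

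The α locus carries several near-identical blocks of segments in C57BL/6, marked d and n in the names, and this limited how far single Trav features could be read. Trav12-2 (chr14:53616315-53616914), Trav12d-2 (chr14:52915799-52916426) and Trav12n-2 (chr14:53226773-53227400) are shown as an example. The last 60 bases of their GENCODE transcripts, 5′ to 3′ and with the codon of the conserved cysteine that precedes the junction in capitals, read as follows.
Trav12-2: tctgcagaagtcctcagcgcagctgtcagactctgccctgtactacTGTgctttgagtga
Trav12d-2: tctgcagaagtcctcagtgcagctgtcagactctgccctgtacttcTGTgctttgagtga
Trav12n-2: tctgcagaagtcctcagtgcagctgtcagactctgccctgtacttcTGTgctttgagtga
Trav12d-2 and Trav12n-2 were identical over all 454 aligned bases, and Trav12-2 matched both at 96.9% of 426 bases. Reads that match several genes equally are dropped in gene counting of this kind. The 74 Trav features for which under 50% of 50-base windows were their own had a median of 36 UMIs, and the other 54 had a median of 1332.5. The part of dropped reads in this gap was not tested. Trav features were joined into 23 families by the number that follows Trav.

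The repertoire of the sorted cells was broad. The 12 most used Trbv segments made up 77.8% of assigned cells on average over 20 mice, led by Trbv13-1 at 8.43% ± 1.71, Trbv12-1 at 8.06% ± 1.45, Trbv13-2 at 7.94% ± 1.74, Trbv19 at 7.19% ± 1.72 and Trbv3 at 7.07% ± 1.16 (SD, n = 20). Neighbours in this order did not differ beyond their spread. Trbv29 at 6.84%, Trbv16 at 6.66%, Trbv12-2 at 5.96%, Trbv1 at 5.75%, Trbv4 at 5.08%, Trbv13-3 at 4.89% and Trbv5 at 3.92% followed. At the rare end stood Trbv23 at 0.469%, Trbv30 at 0.388% and the pseudogene Trbv24 at 0.0183%.

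Of the Trav families, 21 were assigned to at least 1 cell and the 10 most used made up 87.3%. Trav13 stood at 12.5% ± 2.76, Trav12 at 11.4% ± 2.37, Trav7 at 10.97% ± 1.66, Trav14 at 10.1% ± 2.41, Trav16 at 9.88% ± 1.79 and Trav6 at 9.86% ± 1.15, which again overlapped from each to the next. Trav8 held 7.21%, Trav3 6.64%, Trav9 5.34% and Trav4 3.48%.

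**Figure D1:**
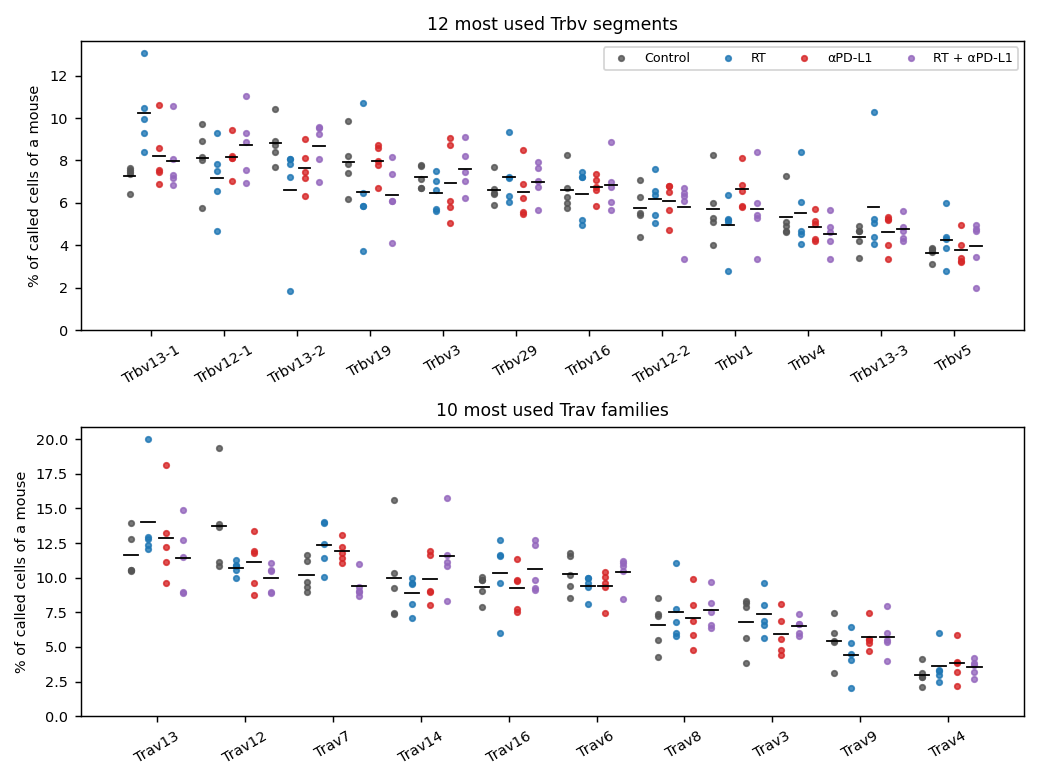
Share of assigned cells (y axis, % of the mouse's cells with a call) for the 12 most used Trbv segments (top) and the 10 most used Trav families (bottom). Points are mice, 5 in each treatment, and bars are group means. The treatments lie over each other for every family, and for Trbv13-1 alone all 5 RT mice (8.39 to 13.1%) lie above all 5 Control mice (6.43 to 7.64%).

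With a single exception, the share of a V segment in treated mice overlapped that in Control mice. Trbv13-1 was assigned to 9.28, 9.95, 10.5, 13.1 and 8.39% of cells in the 5 RT mice and to 7.45, 7.57, 7.36, 6.43 and 7.64% in the 5 Control mice. These ranges did not overlap, whereas the αPD-L1 mice (6.91 to 10.6%) and the RT + αPD-L1 mice (6.83 to 10.6%) overlapped both. No other Trbv segment and no Trav family had all mice of a treatment above or all below all Control mice. RT mouse 4, which had the highest share, had 107 cells with a Trbv.

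Summed over the cells of a mouse, the level of Trbv13-1 likewise separated RT from Control mice. Levels are given as CPM, UMI counts scaled to the total of the mouse, and were tested with edgeR's quasi-likelihood test over 11943 genes, of which 94 were V segments. Trbv13-1 reached 184, 234, 261, 347 and 184 CPM in RT mice and 157, 159, 167, 133 and 164 CPM in Control mice. All RT mice were higher, by 0.58 ± 0.14 on the log2 scale (SE), but the adjusted p was 0.142. Trbv13-1 was the only 1 of the 94 whose RT and Control mice did not overlap, beside 3.08% of all genes. It was lower after RT + αPD-L1 than after RT by 0.52 ± 0.14 (log2 -0.52, adjusted p = 0.0503 with edgeR), with values of 142 to 222 CPM after RT + αPD-L1 that overlapped the RT range.

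No V segment passed an adjusted p of 0.05 for RT against Control (edgeR, 0.109% of all genes), where 12 of 94 had an unadjusted p under 0.05, beside 9.57% of all genes. After αPD-L1 1 did (0.444% of all genes). No member passed for RT + αPD-L1 against Control although 8.76% of all genes did, and 11 of 94 had an unadjusted p under 0.05 beside 23.1%. RT + αPD-L1 gave no call against RT (3.05% of all genes), against αPD-L1 (2.36%) or beyond the sum of both single treatments (0.971%). In these comparisons 6, 13 and 7 of 94 had an unadjusted p under 0.05, beside 15.7, 12.7 and 11.4% of all genes. In the same 6 comparisons DESeq2 called 0 of 20, 1 of 48, 0 of 94, 0 of 94, 1 of 94 and 0 of 74 members that it gave an adjusted p, beside 0.618, 1.21, 7.30, 2.89, 2.31 and 1.49% of all genes. The median log2 difference of the 94 members lay between -0.04 and 0.06 in these comparisons and that of all genes between -0.01 and 0.00.

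The segment called after αPD-L1 was Trav19 (chr14:53845234-53845827), the only member of its family. Its level was 9.91, 29.4, 13.1, 15.98 and 11.2 CPM in the αPD-L1 mice and 6.34, 7.43, 4.26, 9.93 and 9.22 CPM in the Control mice. The groups touched at αPD-L1 mouse 1 and Control mouse 4, and mouse 2 stood far above its group. The difference was 1.23 ± 0.26 on the log2 scale (SE, adjusted p = 0.0375 with edgeR). Without αPD-L1 mouse 2 it was 0.83 and did not pass, and it did not pass either without αPD-L1 mouse 3, without mouse 4 or without any single Control mouse. Of the 1038 Trav19 UMIs of αPD-L1 mouse 2, 59.6% came from 59 cells that also carried Trbv31 and are described below.

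Other segments came close in single comparisons. Trav6-4 was at 3.67, 3.68, 12.5, 5.17 and 5.79 CPM after αPD-L1 and at 1.91 to 3.01 CPM in Control, without overlap (log2 1.35 ± 0.32, adjusted p = 0.0621 with edgeR), and it passed in place of Trav19 when αPD-L1 mouse 2 was left out. It was also lower without overlap after RT + αPD-L1, at 2.42 to 3.60 CPM, than after αPD-L1 (log2 -0.96 ± 0.32, adjusted p = 0.144). Members whose mice did not overlap numbered 2 of 94 for αPD-L1 against Control (Trav6-4 and Trbv13-2) beside 4.21% of all genes, and 2 of 94 for RT + αPD-L1 against αPD-L1 (Trav6-4 and Trav14-3) beside 1.93%. Trbv13-2 was lower after αPD-L1 by a log2 difference of -0.22 (adjusted p = 0.261 with edgeR), which turned to 0.02 without barcodes with 2 Trbv segments. No member was without overlap for RT + αPD-L1 against Control, beside 5.16%, or against RT, beside 2.50%.

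Trav8n-2 had a level of 13.2, 37.0, 18.7, 33.7 and 18.3 CPM after RT against 9.76 to 13.8 CPM in Control (log2 0.95 ± 0.22, adjusted p = 0.114 with edgeR). The groups overlapped at RT mouse 1, and without that mouse Trav8n-2 was called. Trav12-2 had its highest levels in Control, at 58.9 and 85.9 CPM in mice 2 and 4 against 26.8 to 35.5 CPM after RT, and the other 3 Control mice lay at 30.6 to 36.8 CPM. Trav14d-3-dv8 was at 59.8 CPM in RT + αPD-L1 mouse 5 and at 9.89 to 18.2 CPM in the other 4 mice of that group. In each of these cases 1 or 2 mice stood apart from the rest of their group.

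After RT + αPD-L1 the smallest p-values against Control among Trbv segments were those of Trbv17, at 86.7 to 137 CPM against 75.4 to 93.4 CPM (log2 0.37 ± 0.14, adjusted p = 0.102), Trbv19, at 83.3 to 138 CPM against 114 to 165 CPM (log2 -0.37 ± 0.14, adjusted p = 0.111), and Trbv31, at 36.4 to 62.9 CPM against 52.5 to 93.8 CPM (log2 -0.43 ± 0.16, adjusted p = 0.114, all edgeR). The mice of both groups overlapped for each of them. Against αPD-L1 the largest difference was that of Trav15-2-dv6-2, at 0.61, 2.16, 1.67, 5.04 and 3.65 CPM against 0.18, 1.05, 1.63, 0.95 and 0.51 CPM (log2 1.40 ± 0.40, adjusted p = 0.0766 with edgeR), a segment near the lower limit of detection.

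Among other genes of the receptor Trbc2 alone was called between treatments. Of 14 listed genes (the constant regions, the CD3 chains, Cd247, the recombination genes Rag1 and Rag2, and Dntt, which adds bases at the junction) 11 were tested. Trbc2, the second of the β constant regions, fell after RT + αPD-L1 against Control (log2 -0.14 ± 0.04, adjusted p = 0.0289 with edgeR) and against RT (log2 -0.18 ± 0.04, adjusted p = 0.00863). These comparisons called 8.76 and 3.05% of all genes. None of the other tested genes was called in any of the 6 comparisons. Differences without a call reached log2 1.33 ± 0.56, for Tcrg-C2 in RT + αPD-L1 against RT (adjusted p = 0.235 with edgeR). Rag1 and Rag2, which cut the DNA for V segment joining in thymocytes, had 0 UMIs in kept cells.

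The V pair of the P14 receptor and the Trav families of invariant NKT and MAIT cells were each found in few cells. Singly, Trav14 held 10.1% and Trbv13-3 4.89% of assigned cells. Trbv13-3 led 1797 cells with at least 5 UMIs but was assigned to 1258, so some of its cells could not enter the pair count. Trav14 with Trbv13-3, the segments of the P14 receptor that recognizes the LCMV glycoprotein, was found in 38 of 11947 cells with both calls, a mean of 0.278% ± 0.257 over mice (SD, n = 20), from 0 to 0.733%. The group means were 0.319% in Control, 0.122% after RT, 0.366% after αPD-L1 and 0.305% after RT + αPD-L1, with ranges that overlapped. Trav11, used by invariant NKT cells, was assigned to 6 of 15135 cells, and Traj18, its J partner in those cells, was found in 0.0894% of kept cells. Trav11 and Trav11d were identical over 342 aligned bases, so reads of this family were also exposed to the loss described for Trav12. Trav1, used by MAIT cells, was assigned to 167 cells (0.979% ± 0.513).

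The number of cells that shared V segments was counted as the percentage of all pairs of cells within a mouse that had the same segment, a value that does not rest on how many cells were caught. For Trbv alone this was 5.74 to 6.41% in every mouse, and 5.91% on average between cells of different mice. For Trav family and Trbv together it was 0.623% ± 0.079 in Control, 0.754% ± 0.147 after RT, 0.620% ± 0.128 after αPD-L1 and 0.645% ± 0.121 after RT + αPD-L1 (SD, n = 5). The ranges of the groups overlapped, from 0.529 to 0.718% in Control and from 0.578 to 0.909% after RT. The highest RT value was that of RT mouse 4, on 45 cells with both calls. With each mouse left out in turn the RT mean was 0.715 to 0.798%. Between different mice the same V pair was shared by 0.530% of cell pairs. Cells of the same mouse thus shared a V pair slightly more often than cells of different mice.

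This sharing differed between cell states. States were clusters of cells found after 239 V and J genes had been left out, so V segments played no part in forming them, and they are named after markers or by leading genes. The naive-like cluster was led by Igfbp4, Ccr9, Klf2 and Il7r and the effector-like by Ccl5, S100a6, S100a4, Cxcr3 and Klrk1. The T_PEX-like cluster was led by Tnfrsf4, Nrgn, Nrn1 and Cd200 and the cycling G2M-like by Birc5, Ccnb2 and Ube2c. The T_STEM-2-like cluster was led by the interferon-stimulated genes Ifit3b, Ifit3 and Rsad2. Tcf7, Ly6a, Klrk1 and Gzmb were not among its first 10 leading genes, and Klrk1 was among those of the effector-like cluster. The study describes the subset of that name by Tcf7 and Ly6a, an interferon signature and effector genes such as Klrk1 and Gzmb. Whether the cluster matches that subset was not tested. A value was taken for every mouse with at least 30 cells with both calls in the state.

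Naive-like cells of a mouse shared a V pair in 0.568% of cell pairs (median over 18 mice, 0.278 to 1.26%). The H2-Oa Izumo1r cluster (0.564%, 19 mice), the T_STEM-2-like cells (0.539%, 7 mice) and the Xcl1 Tnfrsf9 cluster (0.477%, 12 mice) lay at the same level. Effector-like cells shared a V pair in 0.811% of cell pairs (0.318 to 1.65%) and were above the naive-like cells of the same mouse in 16 of 18 mice. T_PEX-like cells reached 0.985% (0.647 to 1.61%) and were above in 12 of 12 mice. Cycling G2M-like cells reached 1.24% (0.448 to 4.10%) and were above in 15 of 16 mice. The Kcnq1ot1 Lncpint cluster, with a value in 2 mice, was at 0.810 and 2.70%, above in both, and the Hdac9 Sox4 cluster, with a value in 4 mice, had a median of 0.373% and was above in none.

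Cycling cells were deeper, with a median of 16091 UMIs per cell against 5111 in naive-like cells, and 53.0% against 35.1% received a Trav family. With every cell thinned to 4000 UMIs the medians were 0.561% in naive-like, 0.775% in effector-like (above in 14 of 16 mice), 0.950% in T_PEX-like (9 of 9) and 0.941% in cycling G2M-like cells (10 of 12). The order of naive-like below the other 3 states held, and cycling no longer stood above T_PEX-like cells. With the V and J genes left in the clustering the medians were 1.07% in effector-like, 1.12% in T_PEX-like and 1.23% in cycling G2M-like cells.

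**Figure D2:**
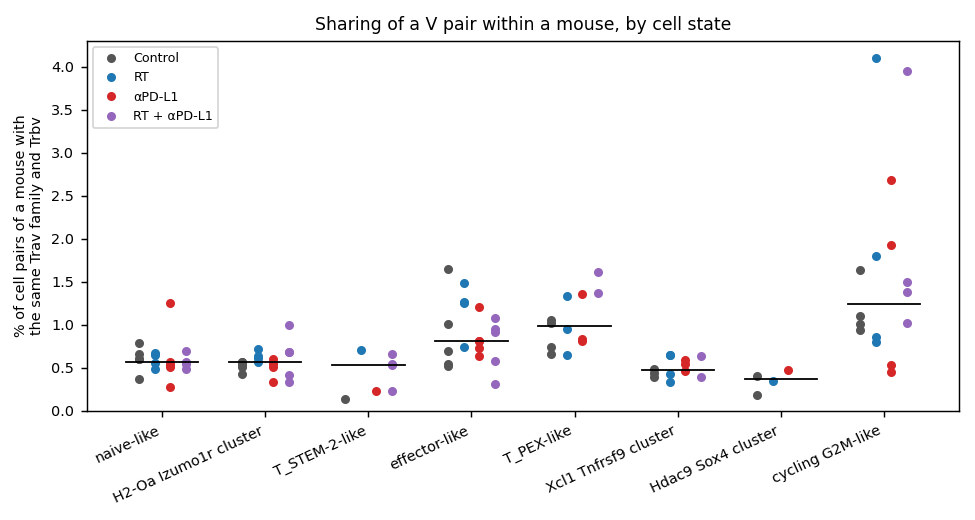
Percentage of cell pairs within a mouse that share both Trav family and Trbv (y axis), for each cell state (x axis). Points are mice with at least 30 such cells in the state, colours are treatments and bars are medians. Naive-like cells lie near 0.568% and cycling G2M-like cells spread up to 4.10%.

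Single V pairs made up several percent of the cells in some mice. The 3 with the largest shares of a mouse's cells, among pairs of at least 10 cells, are shown, again as the last 60 bases of each segment with the conserved cysteine codon in capitals. Trav3-1 (chr14:52580665-52581213) with Trbv15 (chr6:41141188-41141658) was the pair of RT mouse 1, Trav14d-3-dv8 (chr14:53078452-53079045) with Trbv16 (chr6:41151740-41152230) that of RT + αPD-L1 mouse 5, and Trav19 with Trbv31 (chr6:41557691-41558452, minus strand) that of αPD-L1 mouse 2.
Trav3-1: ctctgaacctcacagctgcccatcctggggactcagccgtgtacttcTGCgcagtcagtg
Trbv15: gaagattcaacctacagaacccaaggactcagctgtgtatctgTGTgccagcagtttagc
Trav14d-3-dv8: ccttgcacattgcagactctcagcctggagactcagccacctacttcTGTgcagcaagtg
Trbv16: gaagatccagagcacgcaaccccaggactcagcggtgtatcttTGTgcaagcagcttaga
Trav19: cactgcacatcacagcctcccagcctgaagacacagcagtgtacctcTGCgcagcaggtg
Trbv31: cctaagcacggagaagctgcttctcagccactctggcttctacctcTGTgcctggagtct
These 3 pairs have no segment in common.

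In RT mouse 1 the Trav3 and Trbv15 pair was found in 16 of 262 cells with both calls (6.11%), against 0.248% of such cells in all other mice. It made up 8 of the 40 cycling G2M-like cells (20%) and 5 of the 46 effector-like cells of that mouse, and none of its naive-like cells carried it. Trav3-1 gave 99.6% of the Trav3 UMIs in those cells.

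In RT + αPD-L1 mouse 5 the Trav14 and Trbv16 pair was found in 19 of 309 cells (6.15%), against 0.541% elsewhere, and made up 19.0% of the cycling G2M-like cells. Trav14d-3-dv8 gave 96.8% of the Trav14 UMIs. All 15 Trbj UMIs of these cells came from Trbj1-5, but how many of the cells gave them was not counted. This is also the mouse whose Trav14d-3-dv8 level stood at 59.8 CPM above.

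In αPD-L1 mouse 2 the Trav19 and Trbv31 pair was found in 59 of 1412 cells (4.18%), against 0.114% elsewhere, with 27 cycling G2M-like, 23 effector-like and 7 T_PEX-like cells and no naive-like cell. The same mouse held a Trav4 and Trbv29 pair in 50 cells (3.54%, against 0.161% elsewhere), 29 of them cycling. Of the 5 Trbj UMIs in the Trav19 and Trbv31 cells 4 came from Trbj1-4.

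A rule set after these values were seen, at least 10 cells of a mouse and a share at least 5 times that in the other mice, gave 12 such pairs in 8 mice. They fell in 1 Control mouse, 3 RT mice, 2 αPD-L1 mice and 2 RT + αPD-L1 mice. In 11 of 12 a single Trav feature gave at least 90% of the family's UMIs. Together they held 291 cells, of which 85.2% were cycling G2M-like, effector-like or T_PEX-like and 1.72% naive-like, whereas of all cells with both calls 43.8% and 16.6% were. In all 12 the share of cells in the 3 states was larger than among all cells with both calls of the same mouse. Because the pairs were picked for their number of cells, these shares describe the pairs and were not tested.

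The others included Trav8n-2 with Trbv5 in RT mouse 2 (20 cells), Trav9-1 with Trbv13-1 and Trav16n with Trbv30 in RT mouse 3 (20 and 18 cells) and Trav10n with Trbv29 in Control mouse 3 (10 cells). The cells of the first held 38.4% of the 677 Trav8n-2 UMIs of that mouse, which was also the mouse with the highest Trav8n-2 level after RT. Trav16n with Trbv30 raised a segment that was otherwise rare, as the pair was found in 0.0895% of cells elsewhere and in 2.34% in that mouse. Trav13 with Trbv2 in RT + αPD-L1 mouse 3 (41 cells) differed in state, with 23 cycling G2M-like and 16 T_STEM-2-like cells and no effector-like cell, and its Trav13 UMIs were spread over several features (Trav13-1, 54.3%).

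**Figure D3:**
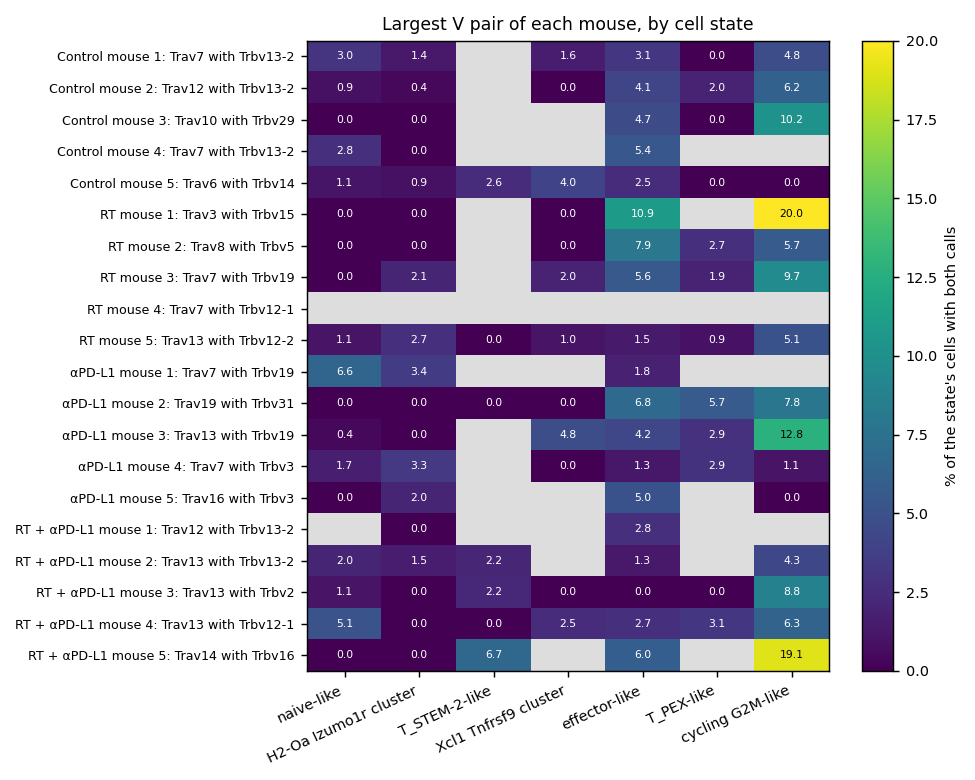
The V pair carried by most cells in each of the 20 mice (rows) and its share of the cells with both calls in 7 cell states (columns, colour and number in %). Grey marks states with under 30 such cells in the mouse. The brightest cells are cycling G2M-like, at 20% in RT mouse 1 and 19.0% in RT + αPD-L1 mouse 5, and the naive-like column stays at or below 6.56%.

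Levels of single V segments were then compared between states within mice. Effector-like cells were set against naive-like cells in 20 mice over 8827 genes (edgeR with the mouse as a block, at least 20 cells per mouse and state), and T_STEM-2-like cells against naive-like cells in 13 mice over 7612 genes. Both comparisons use the same naive-like cells. Of 64 tested members 22 were called in effector-like cells, 19 higher and 3 lower, and of 42 tested members 8 were higher and none lower in T_STEM-2-like cells. With each member scaled to the UMIs of its locus 7 were higher and 10 lower in effector-like cells, and 4 higher and 2 lower in T_STEM-2-like cells. This scaling makes the members of a locus parts of a whole, so higher members by themselves make others lower. The states were made from all genes other than V and J, so the 68.0% and 41.0% of all genes called in the same fits are given as background and not read.

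Trbv29 had the smallest p in both. Its level was 194 CPM in effector-like cells (median, 80.2 to 365 CPM) and 103 CPM in naive-like cells (47.9 to 152 CPM), and it was higher in 19 of 20 mice (log2 0.88 ± 0.06, adjusted p = 1.04e-16 with edgeR). In T_STEM-2-like cells it was 172 CPM, higher in 12 of 13 mice (log2 1.05 ± 0.13, adjusted p = 1.47e-08). Trbv19 rose by 0.55 ± 0.07 and 0.56 ± 0.15, Trbv5 by 0.70 ± 0.10 and 0.72 ± 0.13, Trbv20 by 0.90 ± 0.20 and 0.92 ± 0.22 and Trbv14 by 0.51 ± 0.09 and 0.69 ± 0.17 in effector-like and T_STEM-2-like cells (log2, SE, each called by edgeR). The segments that were lower in effector-like cells were Trav2 (log2 -0.78 ± 0.23), Trav7d-3 (-0.46 ± 0.18) and Trav13-4-dv7 (-0.62 ± 0.25). Trav7d-3 lost its call and turned to 0.06 in clusters found on all variable genes.

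For some of these segments the difference went with the total of V transcripts. Trbv29, Trbv5, Trbv20 and Trbv14 kept their calls in both states when scaled to the UMIs of the locus. Trbv UMIs as a whole were at 2365 CPM in effector-like and 2085 CPM in T_STEM-2-like cells, against 1789 CPM in naive-like cells, over all cells of a state. Trbv3, Trbv4, Trbv12-1, Trbv12-2 and Trbv13-1, higher in effector-like cells per total UMIs by 0.23 to 0.28, lay between -0.05 and 0.00 when scaled to the Trbv UMIs of the mouse and state, as Trbv13-2 did in T_STEM-2-like cells (0.28 and -0.01). Trbv19 in T_STEM-2-like cells lost its call with this scaling, at 0.27 (adjusted p = 0.114 with edgeR). The signalling and constant genes stood higher too, with Trbc1 at 0.45, Trbc2 at 0.34 and Trac at 0.19 in effector-like cells (log2). These genes were among those that formed the clusters, so their values are given without a test.

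A higher sum in a state can come from more cells with the segment or from more transcripts in each of them, so both were read from the calls per cell. A call needs 2 UMIs, and naive-like cells were shallower (a median of 5111 UMIs against 6636 in effector-like cells) and received a Trbv less often (71.0% against 79.4%). In cells assigned Trbv29 the level was 2728 CPM in effector-like and 1683 CPM in naive-like cells (medians), higher in 17 of 17 mice, while the share of cells with Trbv29 was 7.07% and 6.14%, higher in 14 of 19. For Trbv5 the level in carriers was 814 and 702 CPM, higher in 8 of 12 mice, and the share of cells was 4.15% and 2.49%, higher in 12 of 19. For all 19 segments with a value the median level in carriers was higher in effector-like cells, from Trbv1 (2486 and 2287 CPM) to Trbv14 (2742 and 1609 CPM, in 10 of 10 mice). With every cell thinned to 4000 UMIs the median level in carriers was again higher in effector-like cells for all 19, at 2867 and 1786 CPM for Trbv29 (13 of 13 mice) and 1000 and 750 CPM for Trbv5 (7 of 9). The thinned shares were 6.86% and 6.67% for Trbv29 (higher in 13 of 19 mice) and 3.51% and 2.48% for Trbv5 (15 of 19).

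**Figure D4:**
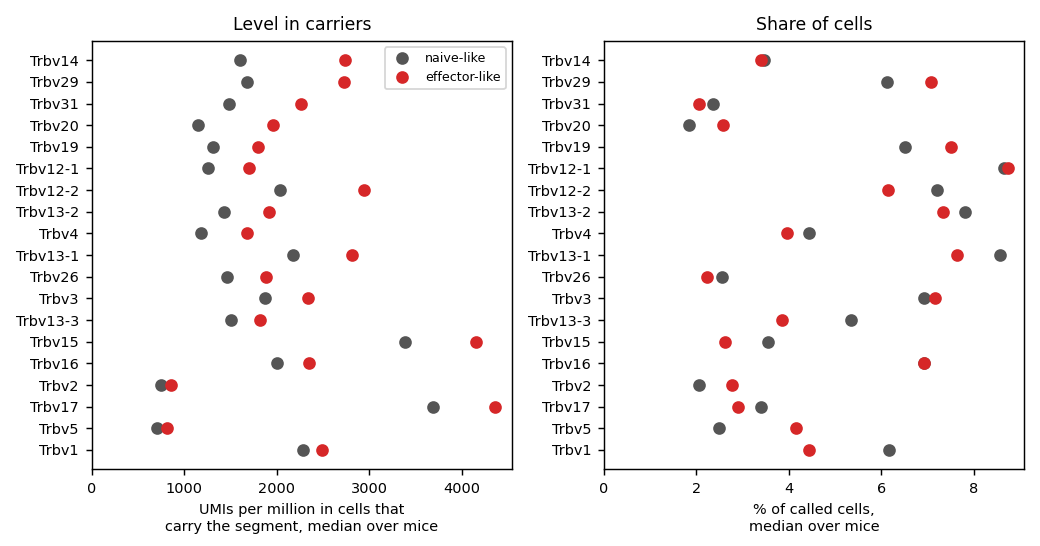
Left, level in CPM in cells assigned the segment; right, share of assigned cells (%), in naive-like (grey) and effector-like (red) cells, as medians over mice for 19 Trbv segments. On the left every red point lies to the right of the grey point; on the right they lie on either side.

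In each state the most used Trbv was a common one. By mean share it was Trbv12-1 in naive-like cells (8.97% ± 2.24), Trbv12-1 in effector-like cells (8.70% ± 2.84), Trbv13-2 in T_PEX-like (9.52% ± 3.20) and cycling G2M-like cells (8.76% ± 3.62, SD, n = 19 mice each) and Trbv29 in T_STEM-2-like cells (8.99% ± 2.96, n = 9). The spread between mice was wider than the gaps between these segments.

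Cells often showed more than 1 Trbv. Among barcodes with a single hashtag 23.4 to 25.9% had a second Trbv of at least 2 UMIs, and among barcodes with several hashtags, which hold several cells, 71.2 to 74.5% did. In the kept cells with a leading Trbv of at least 5 UMIs, 2 segments stood out as the second, Trbv12-2 and Trbv13-2, and did so by the place of the leading segment. This pattern was noticed in the data and is described, not tested.

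The 5 neighbouring segments concerned are printed in the order of the locus, with the conserved cysteine codon in capitals. They are Trbv13-1 (chr6:41116007-41116468), Trbv12-2 (chr6:41118851-41119364), Trbv13-2 (chr6:41121396-41121832), Trbv13-3 (chr6:41130147-41130585) and Trbv14 (chr6:41135145-41135616), all on the plus strand.
Trbv13-1: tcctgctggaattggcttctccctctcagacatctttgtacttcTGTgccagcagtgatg
Trbv12-2: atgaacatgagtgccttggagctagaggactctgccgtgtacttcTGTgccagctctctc
Trbv13-2: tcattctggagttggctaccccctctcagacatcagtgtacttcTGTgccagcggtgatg
Trbv13-3: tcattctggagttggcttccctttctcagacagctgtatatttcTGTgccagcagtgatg
Trbv14: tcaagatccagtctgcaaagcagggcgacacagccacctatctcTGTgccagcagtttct
Trbv13-2 was identical to Trbv13-3 at 90.6% and to Trbv13-1 at 88.7% of aligned transcript bases, and to Trbv14 at 62.5%.

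A Trbv13-2 UMI was found in 37.7% ± 4.54 of cells whose leading segment lies at higher coordinates on the chromosome, closer to the D and J segments, and in 10.3% ± 1.55 of cells whose leading segment lies at lower coordinates (SD, n = 20 mice). The lowest mouse of the former (30.1%) was above the highest of the latter (13.3%). A Trbv12-2 UMI was found in 20.9% ± 2.91 and 6.13% ± 1.19, again in 20 of 20 mice. For Trbv13-1 the values were 4.62% and 3.69% (higher in 14 of 20 mice), for Trbv13-3 2.59% and 2.44% (10 of 20) and for Trbv14 2.25% and 1.99% (14 of 20). Among the 20 segments of at least 1000 UMIs that have leading segments on both sides, only Trbv12-2 and Trbv13-2 were higher in every mouse.

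The share fell with distance. Trbv13-2 was found in 63.7% of cells led by Trbv13-3 and in 67.1% of cells led by Trbv14, which start 8751 and 13749 bases away. It was found in 42.6% with Trbv15, 42.3% with Trbv16 and with Trbv17, 34.4% with Trbv19 and 27.5% with Trbv20, the last 66877 bases away. With Trbv26, Trbv29 and Trbv31, at 106109 bases and beyond, it was 9.77, 10.5 and 12.9%, beside 9.32 to 12.9% with leading segments on the other side. With Trbv13-1, which starts nearer than Trbv13-3 but on the other side, Trbv13-2 was found in 9.73% of cells. The part of sequence similarity in this pattern was not tested.

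Trbv12-2 followed the same course. It was found in 49.2% of cells led by Trbv13-2, 2545 bases away, in 29.8% with Trbv13-3, 30.5% with Trbv14, 18.0% with Trbv15, 12.6% with Trbv19 and 9.78% with Trbv20. Beyond 100 kb it was 5.01 to 6.52%, beside 5.65 to 7.30% on the other side. Most of these second segments had few UMIs, since Trbv13-2 made up 9.80% of the Trbv UMIs in Trbv13-3 cells and 8.54% in Trbv14 cells.

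**Figure D5:**
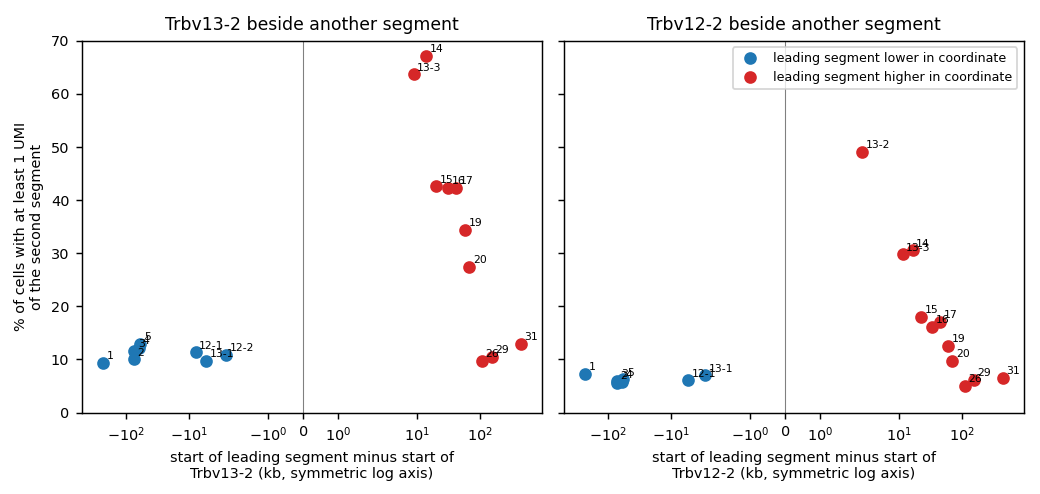
Percentage of cells with at least 1 UMI of Trbv13-2 (left) or Trbv12-2 (right) when another Trbv leads (y axis), against the distance from its start to the start of the leading segment (x axis, kb, symmetric log scale). Each point is a leading segment, labelled by its number; red points lie at higher coordinates. The red points fall from 67.1% and 49.2% near the segment to the level of the blue points beyond 100 kb.

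The gap was present in every cell state. The share of cells with a Trbv13-2 UMI was 28.0% against 8.86% in naive-like cells, 38.1% against 10.7% in effector-like, 41.6% against 13.3% in T_PEX-like and 44.6% against 11.3% in cycling G2M-like cells. It was also present with at least 2 UMIs of the second segment (18.7% against 3.85%), in barcodes kept by a stricter hashtag assignment (36.0% against 10.0%) and without cells that showed a further segment (20.6% against 4.02%), in 20 of 20 mice each time.

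Some Trav segments can also join in the δ locus, which lies within the α locus, and carry dv in their names. In a cluster of 1201 cells led by Klra7 and Klra6, in which 25.6% had the δ constant gene Trdc and 64.4% Cd8b1, 5 of the 10 dv segments stood higher than in naive-like cells. Trav15-2-dv6-2 was at 44.6 ± 34.4 CPM there and at 2.86 ± 3.40 CPM in naive-like cells (SD, 17 and 20 mice), higher in 16 of 17 mice. Trav13-4-dv7 was at 56.6 and 11.6 CPM and Trav21-dv12 at 31.4 and 6.05 CPM, each higher in 13 of 17 mice. Trav15-1-dv6-1 (13.9 and 2.82 CPM) and Trav15d-1-dv6d-1 (4.74 and 0.50 CPM) were higher in 10 and 12 of 17. Trav14d-3-dv8, at 3.56 and 12.3 CPM, was higher in 1 of 17. The γδ T cell-like cluster, with Trdc in 45.5% of 571 cells, differed (means over 12 mice). Trav13-4-dv7 at 4.29 CPM, Trav21-dv12 at 1.97 CPM and Trav15-1-dv6-1 at 0.59 CPM were lower there than in naive-like cells. Trav15-2-dv6-2 at 4.76 CPM and Trav15d-1-dv6d-1 at 0.89 CPM were higher by the mean alone, on 14 and 3 UMIs. Their medians over mice were 0.91 and 0 CPM, below the naive-like medians of 1.74 and 0.44 CPM. Both clusters were set aside from all results above, and since they were themselves formed from expressed genes these values are a description.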

How the data were processed

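Single-cell libraries were made from hashed cells pooled over 5 mice per treatment. Per the labels a 10x Genomics 3′ kit was used and reads were processed with Cell Ranger on mm10. The deposited matrices hold the UMI counts per feature and barcode that the authors obtained in this way, unnormalized. How a 3′ kit reads V segments, which lie far from the transcript end, is not given in the sources used here.

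Barcodes with 500 to 5000 genes, at most 40000 UMIs and at most 10% mitochondrial UMIs were kept. A hashtag was called at the emptiest bin between the modes of its log10 counts, and barcodes with a single hashtag were used, which removed marked doublets between mice. Doublets within a mouse could not be seen and no doublet caller was run. Cells were clustered with scanpy 1.11.5 (2000 variable genes without 239 V and J genes, 20 components, 15 neighbours, Leiden resolution 0.6). Clusters were named from marker lists, and a difference from the study may come from rebuilt names. Naive cells that the study sorted separately were not used here.

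Counts were summed per mouse and tested with edgeR 4.0.16 (TMM, filterByExpr, quasi-likelihood test, two-sided, Benjamini-Hochberg over all genes tested, called at an adjusted p under 0.05). Treatment fits used all 20 mice. State fits had the mouse as a block. The standard error is the absolute log2 difference divided by the square root of F. Mice came from 1 experiment in each library, so p-values measure the spread between these mice. In counts simulated for RT + αPD-L1 against Control over 11825 genes, 88% of 50 genes changed 1.5-fold and 98% of 50 genes changed 2-fold were recovered. Of the 201 genes called there, 9 had not been changed. The changed genes were drawn from those with an expected count above 50 at the mean depth of a mouse. The recovery therefore does not cover V segments of lower count. Trav families, V pair sharing and second segments are descriptions without a test. Transcript sequences and positions were read from the GENCODE annotation of GRCm38.

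Named segments were those called, the 3 higher and 3 lower members of smallest p per comparison, the most used segments, the P14, NKT, MAIT and dv segments, the largest V pair of each mouse and the top Trbv of each state. The members and lists were chosen with earlier results of these data known. Alternatives were DESeq2 1.42.0, upper quartile factors, no filter, scaling to the locus, HTODemux (Seurat 5.3.0), removal of barcodes with 2 Trbv segments, other call limits, clusters on all genes, thinning to 4000 UMIs and leaving out each mouse in turn.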

Additional observations from a re-analysis of the deposited data

Results flagged for a closer look

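Among 108 groups of 5 mice examined for a mouse far from the other 4, 11 held such a mouse. Chance sets apart about 1 in 20 groups, and no explanation was weighed.

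RT mouse 4, with 134 kept cells and 50 cells with a Trav family, gave 4 of them. Its share of Trbv13-2 was 1.87% against 7.20 to 8.08% in the other RT mice, and its share of Trbv13-3 was 10.3% against 4.06 to 5.26%. Its share of the Trav4 family was 6% against 2.48 to 3.36%, and its share of the Trav13 family was 20% against 12.1 to 13.0%.

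In Control, mouse 5 had a Trbv4 share of 7.28% against 4.64 to 5.10%. Control mouse 4 had a low Trbv5 share of 3.10% against 3.69 to 3.87% and a low Trbv13-1 share of 6.43% against 7.36 to 7.64%. Without this mouse the Control range of Trbv13-1 was 7.36 to 7.64%, still below the lowest RT mouse at 8.39%.

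In RT + αPD-L1, mouse 1 had a Trbv12-2 share of 3.38% against 6.09 to 6.71%, a Trav6 share of 8.47% against 10.5 to 11.2% and a Trav19 level of 4.24 CPM against 10.4 to 11.7 CPM. RT + αPD-L1 mouse 5 had a Trav7 share of 11.02% against 8.69 to 9.32%.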

How the results depend on the processing

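Few V segments were called between treatments under any setting. RT + αPD-L1 against RT gave 1 call with upper quartile factors and 1 with no filter on low counts (Trbv13-1 in both). RT + αPD-L1 against Control gave 1 call with no filter (the pseudogene Trbv10) and 1 without barcodes with 2 Trbv segments (Trbv2). αPD-L1 against Control gave 2 with HTODemux and 2 without barcodes with 2 Trbv segments (Trav6-4 and Trav19 in both). RT + αPD-L1 against αPD-L1 gave 1 with HTODemux (Trav6-4), 1 without barcodes with 2 Trbv segments (Trav19) and 1 with DESeq2. Leaving out each mouse in turn gave 0 to 1 calls for RT against Control, 0 to 2 for αPD-L1 and for RT + αPD-L1 against Control, and 0 to 1 for each of the other 3 comparisons. The single calls for RT + αPD-L1 against RT were Trbv13-1 without RT mouse 1, RT mouse 5, αPD-L1 mouse 1 or RT + αPD-L1 mouse 5, and Trav7-6 without RT mouse 3. For RT + αPD-L1 against Control they were Trav8n-2 without RT mouse 2, Trbv19 without RT + αPD-L1 mouse 1, Trav14d-3-dv8 without mouse 2 or mouse 3, Trbv14 without mouse 4, and Trbv17 with Trav8n-2 without mouse 5. Trav15-2-dv6-2 was called against αPD-L1 without RT + αPD-L1 mouse 1 or 3, and Trbv13-1 beyond the sum without mouse 5. The causes were not tested.

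Without a filter 41 of 139 members were called in effector-like and 25 of 133 in T_STEM-2-like cells, beside 38.9 and 20.5% of all genes. Without the mouse as a block, that is with no replicate block, 16 and 8 were called, beside 66.2 and 44.9%. For the treatment fits, no paired analysis was possible because hashtag numbers only name the mice of a library. Some log2 differences changed sign. Trbv13-2 after αPD-L1 went to 0.0166 without barcodes with 2 Trbv segments. In effector-like cells scaling to the locus took Trbv3 to -0.0190, Trbv4 to -0.0400, Trbv12-1 to -0.0145, Trbv13-1 to -0.001342 and Trbv12-2 to -0.0518, and clusters on all variable genes took Trbv12-2 to -0.0284 and Trav7d-3 to 0.0626. In T_STEM-2-like cells scaling to the locus took Trbv13-2 to -0.0105.

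The share of cells with a Trbv was 78.0% at 1 UMI, 72.4% at 3 UMIs and 92.1% at 50% of the locus, and that with a Trav family 54.9%, 33.5% and 60.1%, or 38.66% with single Trav features. Leaving out a mouse moved the former between 74.5 and 75.0% and the latter between 40.5 and 40.9%. Counted by UMIs in place of cells, the same Trbv was shared at 6.29% in Control, 6.78% after RT, 6.25% after αPD-L1 and 6.45% after RT + αPD-L1. With single Trav features the same V pair was shared at 0.248, 0.355, 0.268 and 0.294% in that order. Sharing in the Hdac9 Sox4 cluster went from 0.373% to 0.533% with clusters on all genes and 0.508% after thinning. A second Trbv was found at 1 and 3 UMIs in 52.91 and 15.04% of barcodes with 1 hashtag and in 87.15 and 62.4% of those with several. At this depth fewer cells received a Trav family than a Trbv, and spreads over mice do not cover reads lost to identical segments.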
